A study of Mus musculus with 15 samples.

Results

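The genes described here make, sense and remove prostaglandins: *Pla2g4a*, *Ptgs1*, *Ptgs2*, *Ptges*, *Ptgis* and *Ptgds* (arachidonate release and synthesis), *Ptger2*, *Ptger4* and *Ptgfr* (receptors) and *Hpgd* (inactivation). They were taken by name, as the probes whose identifier on the array was a RefSeq transcript of 1 of these 10 genes, which gave 14 of the 56605 probes and 10 of the 23462 genes named on the array. Gene expression was measured on 15 one-color arrays of Mouse Embryonic Fibroblasts (MEFs), 3 for each of 5 groups. These were control MEFs and MEFs stimulated by TNFα at 10 ng/ml, by TGFß1 at 5 ng/ml, by IL-1β at 1 ng/ml, or by IL-6 at 20 ng/ml with its soluble receptor sIL-6Rα at 25 ng/ml. All groups share 1 established cell line, the Balb/c 3T3 clone A31, so the arrays are cultures of 1 clone and no animals entered. The labels give 24 or 72 h of culture without saying which array had which. The arrays of control, TNFα and TGFß1 are described as the 24 h cultures, and the time of the other groups is not given in the sources used here. The study compared cytokine-treated with untreated MEFs to describe proinflammatory and profibrotic states, and the comparisons below ask where these genes stood in each. Arrays are called by their group and the number in their label, and the study describes those of control, TNFα and TGFß1 as independent experiments. For IL-1β and IL-6/sIL-6Rα nothing says this, and their p-values measure only the spread between these arrays, which may be technical.

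Prostaglandins are lipid signals made on demand. Cytosolic phospholipase A2 (*Pla2g4a*) frees arachidonic acid from membranes, the cyclooxygenases COX-1 (*Ptgs1*, mostly constitutive) and COX-2 (*Ptgs2*, induced by cytokines and growth factors) turn it into prostaglandin H2, and terminal synthases such as microsomal prostaglandin E synthase-1 (*Ptges*) and prostacyclin synthase (*Ptgis*) make the final products. In fibroblasts, prostaglandin E2 acting through its EP2 and EP4 receptors (*Ptger2*, *Ptger4*) is known to restrain proliferation and collagen production, while the prostaglandin F receptor (*Ptgfr*) signals through calcium.

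RefSeq promoter windows of the assembly GRCm38.p6, running from 250 bases before to 50 bases after the annotated start, were found for 9 of the 10 genes, *Ptgis* being the exception. The 4 printed here belong to the genes whose changes the results turn on. They are the induced cyclooxygenase *Ptgs2* (chr1:150099781-150100080, plus strand), the synthase *Ptges* (chr2:30903248-30903547, minus strand) and the receptors *Ptger4* (chr15:5244138-5244437, minus strand) and *Ptgfr* (chr3:151837479-151837778, minus strand), each read 5′ to 3′ along the gene with motif matches in capitals.
Ptgs2: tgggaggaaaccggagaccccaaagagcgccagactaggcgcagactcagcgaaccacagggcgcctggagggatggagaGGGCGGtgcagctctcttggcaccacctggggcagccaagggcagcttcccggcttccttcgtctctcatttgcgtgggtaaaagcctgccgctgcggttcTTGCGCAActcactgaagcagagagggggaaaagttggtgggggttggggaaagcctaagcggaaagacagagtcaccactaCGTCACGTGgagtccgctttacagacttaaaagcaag
Ptges: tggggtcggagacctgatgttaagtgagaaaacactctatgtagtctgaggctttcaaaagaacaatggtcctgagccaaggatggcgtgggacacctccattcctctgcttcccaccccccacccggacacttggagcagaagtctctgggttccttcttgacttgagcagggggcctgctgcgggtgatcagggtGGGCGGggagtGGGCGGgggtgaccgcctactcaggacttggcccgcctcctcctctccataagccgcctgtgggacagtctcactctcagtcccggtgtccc
Ptger4: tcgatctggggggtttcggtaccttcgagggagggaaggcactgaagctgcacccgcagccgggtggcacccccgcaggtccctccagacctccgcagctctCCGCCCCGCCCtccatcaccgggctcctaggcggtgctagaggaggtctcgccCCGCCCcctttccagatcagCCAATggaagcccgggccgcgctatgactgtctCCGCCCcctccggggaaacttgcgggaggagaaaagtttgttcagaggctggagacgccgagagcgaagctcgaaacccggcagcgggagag
Ptgfr: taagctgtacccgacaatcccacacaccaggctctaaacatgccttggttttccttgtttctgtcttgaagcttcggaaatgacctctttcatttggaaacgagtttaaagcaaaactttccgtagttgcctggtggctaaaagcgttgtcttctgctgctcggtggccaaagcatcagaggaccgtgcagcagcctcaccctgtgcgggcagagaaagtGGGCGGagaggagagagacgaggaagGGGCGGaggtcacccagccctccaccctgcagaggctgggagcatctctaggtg

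Of the motifs, 10 were searched on both strands. The capitals in *Ptgs2* mark, in order, a GC box (GGGCGG), a C/EBP site (TTGCNNAA) at bases -69 to -62 from the start, and a CRE core (TGACG, read on the other strand) at bases 14 to 18, which overlaps an E-box (CACGTG) at bases 17 to 22. *Ptger4* held 4 GC boxes, read on the other strand and of which a pair shares a base, and 1 CCAAT box (CCAAT), while *Ptges* and *Ptgfr* each held 2 GC boxes. Over the 32851 windows of the table, 35.7% held a GC box, 37.4% a CCAAT box, 20.8% a CRE core, 10.8% a C/EBP site and 7.15% an E-box. None of these 4 windows matched the TATA box (TATAAA, in 13.6% of windows), the kappaB site (4.51%), the AP-1 site (TGANTCA, 7.81%), the STAT site (TTCNNNGAA, 8.3%) or the SMAD site (CAGACA, 21%). The letters are a description of these windows and carry no measurement of binding.

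Levels are log2 processed signal minus the array's 75th percentile, so a level of 0 is the 75th percentile of the array's probes, and levels are compared between arrays for 1 probe, never between probes. Between 48.3% and 54.9% of probes were well above background per array, and the 2 slides on which the arrays lay both held every group. Arrays of a group correlated at r = 0.99 to 0.995 on 1 slide and at 0.977 to 0.985 across slides, over all probes tested. All 8 fibroblast markers were well above background on all 15 arrays. Of 6 leukocyte markers, *Ptprc*, *Adgre1* and *Tyrobp* were above background on no array and *Csf1r*, *Cd68* and *Itgam* on all. Of 4 endothelial markers, *Cdh5*, *Kdr* and *Tek* were above background on no array and *Pecam1* on all 15. Of 4 epithelial markers, *Cdh1* was above background on no array, *Epcam* on 1, *Krt8* on 4 (3 of them TGFß1 arrays) and *Krt18* on 10. The summed epithelial markers (*Krt8*, *Krt18*, *Epcam*, *Cdh1*), in units of the 75th percentile, ranged from 0.0623 to 0.191 in control and from 0.221 to 0.590 in TGFß1-treated MEFs, and the summed fibroblast markers from 1088 to 1418 with TNFα against 1700 to 2098 in control. Their part in the results was not tested. In such bulk samples, fewer cells of a type and less RNA per cell cannot be told apart.

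The prostaglandin F receptor *Ptgfr* and the EP4 receptor *Ptger4* fell with both TNFα and TGFß1, and TGFß1 also raised *Ptgs2* and lowered *Ptgs1*. A gene was called where the q-value (limma's p-value adjusted by the Benjamini-Hochberg method over 29334 probes) was below 0.05 and the absolute fold-change was at least 1.5. A gene was tested where all arrays of some group showed it well above background, which held for 7 of the 10. With TNFα 2 of 7 were called, both lower, where 12.6% of the 13528 genes tested were called, 4.56% higher and 8.00% lower. With TGFß1 4 of 7 were called, 1 higher and 3 lower, where 21.1% of genes were called, 8.89% higher and 12.2% lower. The call of *Ptgs1* with TGFß1, and that of *Ptger4* with TNFα on its brightest probe, were lost on leaving out some single arrays. *Ptges*, counted here by its brightest probe, was not called, but its 2 other probes were called higher with TNFα and lower with TGFß1. Neither IL-1β nor IL-6/sIL-6Rα gave a call in limma's test among the 7 (0.318% and 0.0887% of genes), and the p-value was below 0.05 without adjustment for *Ptgs2* and *Ptgis* with IL-1β and for no gene with IL-6/sIL-6Rα. The median log2 fold-change of the 7 genes was 0.11 with TNFα, -0.48 with TGFß1, 0.07 with IL-1β and 0.02 with IL-6/sIL-6Rα, beside 0.01, 0.06, -0.01 and -0.01 over all genes tested. These 4 comparisons share the control arrays. Groups did not overlap with control in 33.3% of genes with TNFα, 44.9% with TGFß1, 6.01% with IL-1β and 5.82% with IL-6/sIL-6Rα.

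**Figure D1:**
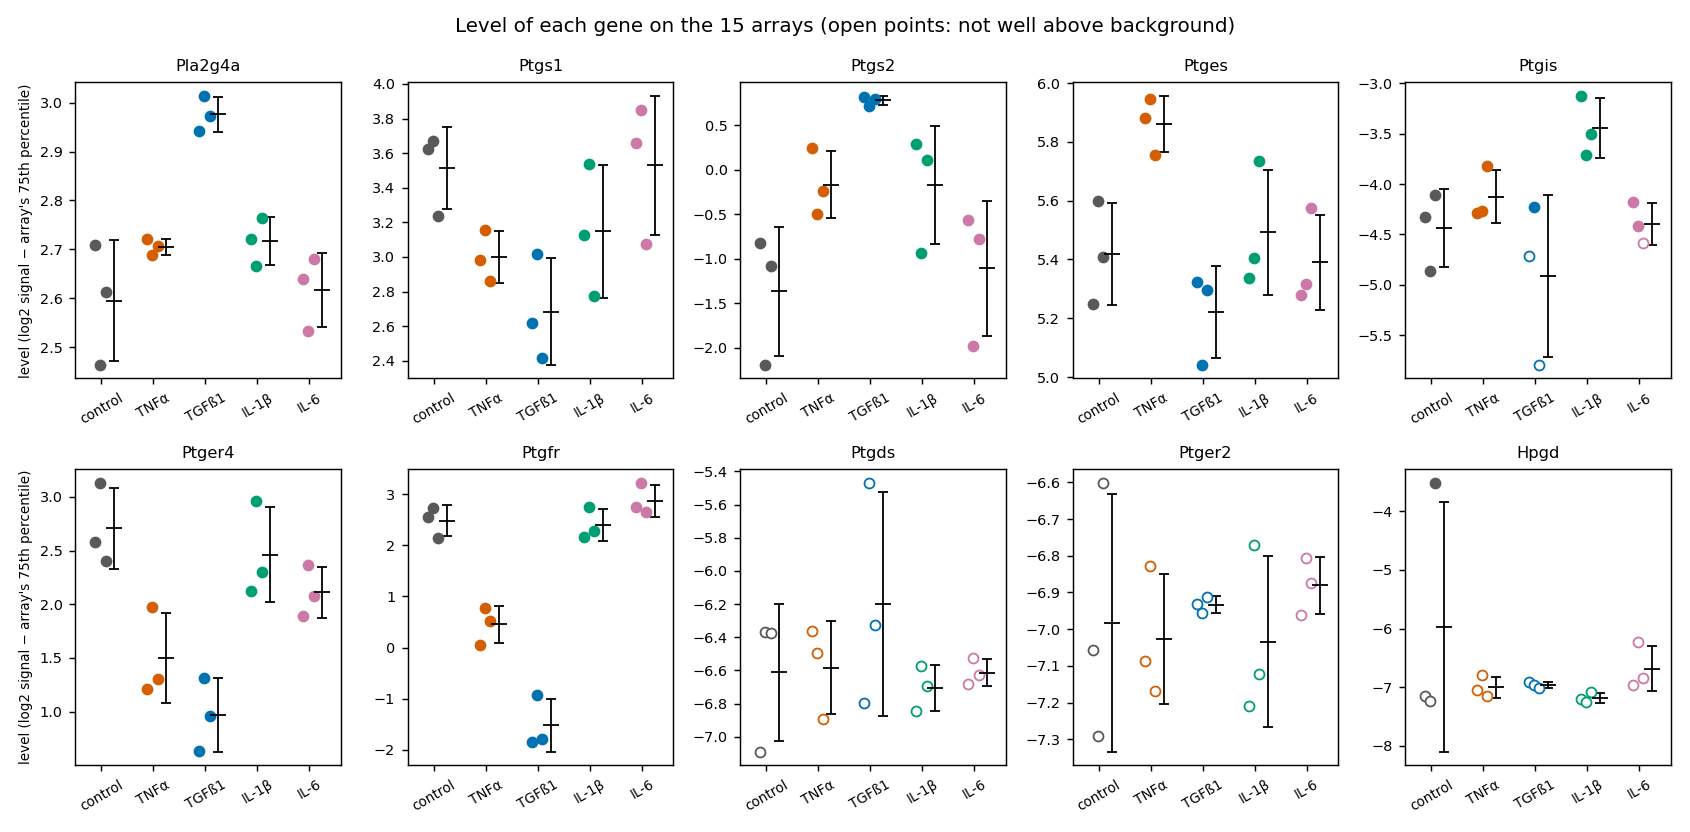
Level of the brightest probe of each gene (log2 processed signal minus the array's 75th percentile) on each of the 15 arrays by group, 1 point per array, open where the probe was not well above background, with mean and SD (n = 3) beside the points. *Ptgfr* is below all control arrays on the 3 TNFα and 3 TGFß1 arrays, *Ptgs2* is highest on the TGFß1 arrays, and *Ptgds*, *Ptger2* and, on all but 1 array, *Hpgd* lie at background; each panel has its own vertical scale.

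*Pla2g4a*, the phospholipase at the head of the pathway, varied little. Its level lay between 2.46 and 3.01 on the 15 arrays. The TGFß1 arrays, at 2.94, 3.01 and 2.97, were all above the control arrays, at 2.71, 2.46 and 2.61. The difference was 0.38 ± 0.09 on the log2 scale (SE, q = 0.0112), which is 1.30-fold and so under the fold-change needed for a call. With TNFα, IL-1β and IL-6/sIL-6Rα the difference from control was 0.02 to 0.12, with intervals that included 0.

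*Ptgs1*, the constitutive cyclooxygenase, was lower with TGFß1. It lay at 3.63, 3.67 and 3.24 on control 1, 6 and 11 and at 2.62, 3.02 and 2.41 on TGFß1 2, 7 and 12, so the groups did not overlap. The difference was -0.83 ± 0.24 (SE, q = 0.0252), a 1.78-fold fall. Within the slides it was -0.41 and -1.15. The call was lost on leaving out control 1 (q = 0.0681), control 6 (0.0798), TGFß1 2 (0.0778) or TGFß1 12 (0.0991). TNFα arrays were at 2.98, 3.16 and 2.86, also below every control array, with a difference of -0.51 that was not called (q = 0.200, 95% interval -1.04 to 0.01). The order of group means was IL-6/sIL-6Rα 3.53, control 3.51, IL-1β 3.15, TNFα 3.00 and TGFß1 2.68. The neighbours control and IL-6/sIL-6Rα (difference 0.02), control and IL-1β (0.37), IL-1β and TNFα (0.15), and TNFα and TGFß1 (0.31) were separated by no call.

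*Ptgs2*, the inducible cyclooxygenase, had nearly the opposite order. It lay at -0.82, -2.19 and -1.08 on control 1, 6 and 11. TGFß1-treated MEFs gave 0.82, 0.72 and 0.80, above every array of every other group. The difference of 2.14 ± 0.43 (SE, q = 0.00377) is a 4.41-fold rise, with 1.67 and 2.99 within the slides. TNFα arrays 4, 9 and 14 lay at 0.24, -0.50 and -0.24, above all control arrays, and IL-1β arrays 5, 10 and 15 at 0.29, -0.93 and 0.11, of which the array at -0.93 overlapped the control range. The differences of 1.20 with TNFα (2.29-fold, q = 0.0954, 95% interval 0.26 to 2.13) and 1.19 with IL-1β (2.28-fold, q = 0.968, 95% interval 0.25 to 2.13) were not called. IL-6/sIL-6Rα arrays, at -0.57, -1.98 and -0.78, overlapped control. The levels ordered as TGFß1, TNFα, IL-1β, IL-6/sIL-6Rα and control, but no neighbours in this order were separated by a call: TGFß1 stood 0.94 above TNFα (q = 0.183), TNFα 0.01 above IL-1β (q = 0.994), IL-1β 0.93 above IL-6/sIL-6Rα (q = 1) and IL-6/sIL-6Rα 0.26 above control (q = 1).

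The spread of *Ptgs2* within groups followed the numbers in the labels. The numbers form 3 runs (1 to 5, 6 to 10, 11 to 15), and a run holds an array from each group. In all 5 groups *Ptgs2* was lowest on the array of the run 6 to 10 and highest on that of the run 1 to 5. Of the 13528 genes tested, 6.34% were lowest in the run 6 to 10 in all groups and 1.88% were highest in the run 1 to 5. Taken within runs, *Ptgs2* exceeded control by 1.06, 1.69 and 0.84 with TNFα, by 1.64, 2.91 and 1.88 with TGFß1, by 1.11, 1.26 and 1.20 with IL-1β, and by 0.25, 0.21 and 0.30 with IL-6/sIL-6Rα. With the run as a block, the TNFα difference was called (1.20 ± 0.24, SE, q = 0.00597), and with run and slide as blocks the IL-1β difference was called as well (1.19 ± 0.24, SE, q = 0.0468). With the run as a block *Ptgs2* was also called higher with TGFß1 than with TNFα (q = 0.0183) and IL-1β (q = 0.0130), and higher with TNFα than with IL-6/sIL-6Rα (q = 0.0226). *Ptgs1*, *Ptger4* and *Ptgfr* ran the other way, with the array of the run 6 to 10 highest in all 5 groups, as in 4.44% of genes. What a run was is not given in the sources used here.

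**Figure D2:**
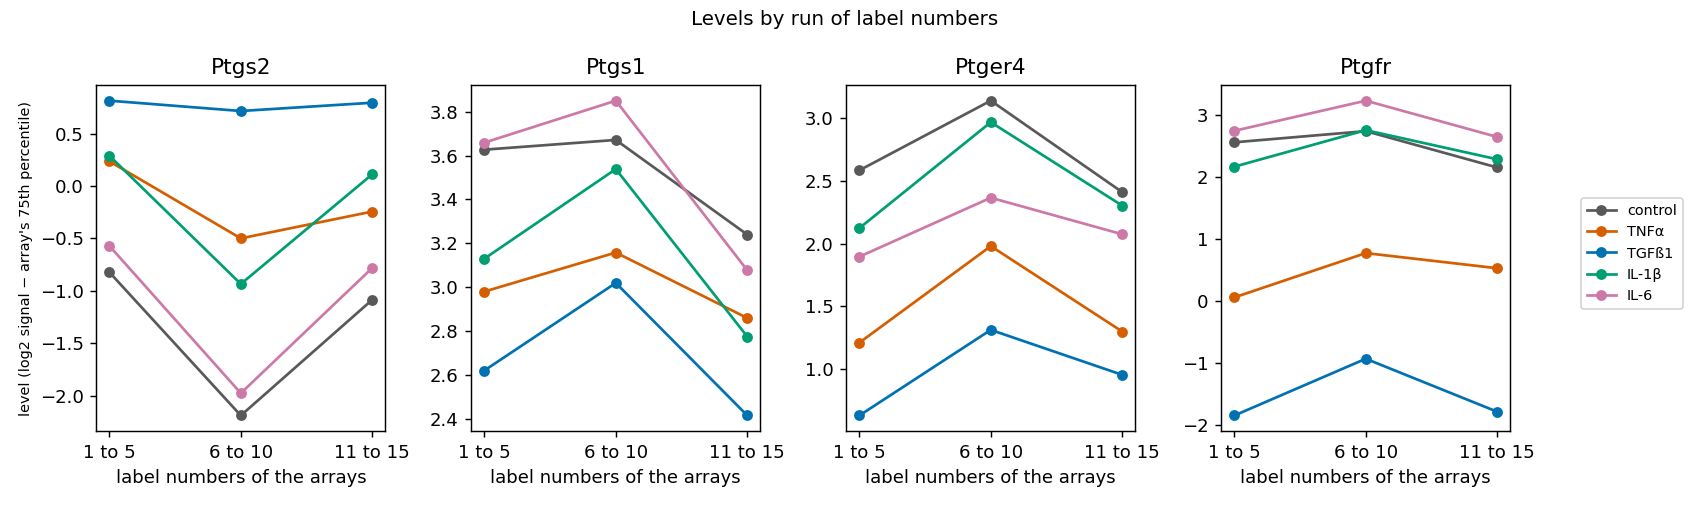
Level (log2 processed signal minus the array's 75th percentile) of *Ptgs2*, *Ptgs1*, *Ptger4* and *Ptgfr* against the run of label numbers, 1 point per array and 1 line per group. *Ptgs2* dips in the run 6 to 10 in every group, from -0.82 to -2.19 in control but only from 0.82 to 0.72 with TGFß1, while the other genes peak there.

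*Ptges*, the synthase downstream of COX-2, was read by 3 probes, all annotated to the same RefSeq transcript and well above background on all 15 arrays. They did not give the same calls. On the brightest probe (A_55_P1974193), TNFα arrays lay at 5.88, 5.94 and 5.76, above control arrays at 5.25, 5.60 and 5.41, with a difference of 0.44 ± 0.14 (SE, q = 0.0645) that was not called. TGFß1 arrays, at 5.32, 5.04 and 5.30, overlapped control (difference -0.20, q = 0.347). On the probe A_51_P312327, TNFα arrays lay at 3.56, 3.74 and 3.87 against 2.68, 2.82 and 2.81 in control, a called rise of 0.96 ± 0.15 (SE, 1.94-fold, q = 0.00157). On the same probe TGFß1 arrays lay at 0.84, 0.99 and 0.81, a called fall of 1.89 ± 0.15 on the log2 scale (SE, 3.71-fold, q = 7.67e-06). The probe A_55_P1974189 gave 0.88 with TNFα and -1.995 with TGFß1, both called, the former not after median scaling (q = 0.0647). These last probes correlated with each other at r = 0.995 over the 15 arrays and with the brightest at 0.697 and 0.658. All 3 probes put TNFα above TGFß1 with a call, by 0.64, 2.85 and 2.88 in the order given. Within the slides, the probe A_51_P312327 gave 1.13 and 0.84 with TNFα and -1.76 and -1.99 with TGFß1. With IL-1β and IL-6/sIL-6Rα, the *Ptges* probes differed from control by at most 0.19, with no call. The mean of the 3 probes was called in both directions, at 0.76 with TNFα and -1.36 with TGFß1.

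**Figure D3:**
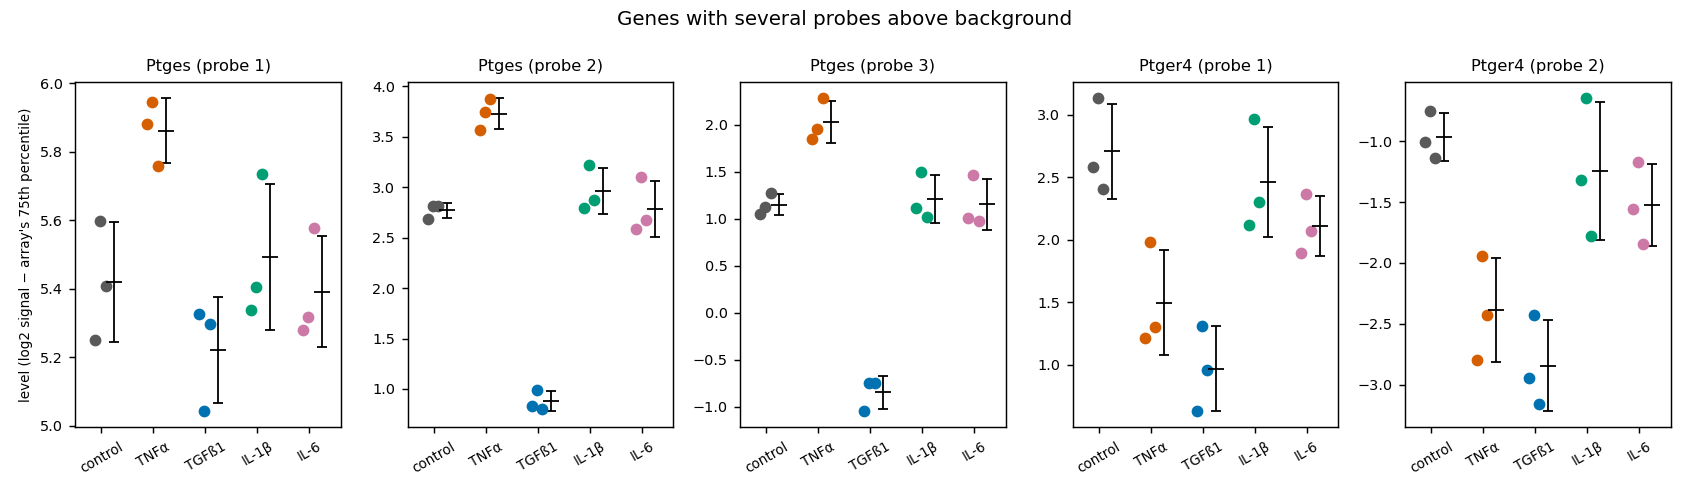
Level (log2 processed signal minus the array's 75th percentile) on each array by group for the 3 *Ptges* probes and the 2 *Ptger4* probes, with mean and SD (n = 3). *Ptges* probe 1 is A_55_P1974193, probe 2 A_51_P312327 and probe 3 A_55_P1974189, and only probes 2 and 3 show the TGFß1 arrays apart, near 0.88 and -0.85, whereas both *Ptger4* probes (A_55_P2747136 and A_51_P207988) show the same order of groups.

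*Ptgis*, prostacyclin synthase, was dim. Its probe A_55_P2154027 was well above background on 12 of 15 arrays, including all IL-1β arrays, 2 of 3 IL-6/sIL-6Rα arrays and 1 of 3 TGFß1 arrays, and its other probe on none. IL-1β arrays lay at -3.12, -3.71 and -3.50, above every control array (-4.33, -4.86 and -4.11). The difference of 0.99 was not called (q = 0.812, 95% interval 0.26 to 1.72), and IL-1β stood 1.47 ± 0.34 (SE, q = 0.00825) above TGFß1, which was called, although after normexp background correction with quantile normalization the same difference was 0.35 and the call was lost. *Ptgds*, which makes prostaglandin D2 in brain and other tissues, was not well above background on any array, at levels from -7.09 to -5.47.

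*Ptgfr* fell with both TNFα and TGFß1. It lay at 2.56, 2.74 and 2.15 on control arrays, at 0.06, 0.77 and 0.53 with TNFα and at -1.85, -0.93 and -1.79 with TGFß1. The 3 groups did not overlap. The fall was 2.03 ± 0.28 on the log2 scale with TNFα (SE, 4.08-fold, q = 0.000518) and -4.00 ± 0.28 with TGFß1 (SE, 16.0-fold, q = 2.71e-06). TNFα stood 1.97 above TGFß1 (3.93-fold, q = 0.000375). IL-1β arrays, at 2.16, 2.75 and 2.28, and IL-6/sIL-6Rα arrays, at 2.74, 3.23 and 2.64, overlapped control, with differences of -0.08 (95% interval -0.69 to 0.53) and 0.39 (-0.22 to 1.00). Within the slides the TNFα difference was -1.83 and -2.32 and the TGFß1 difference -3.29 and -4.55. Leaving out any 1 array kept both calls, at -2.19 to -1.83 and -4.30 to -3.84.

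*Ptger4*, the EP4 receptor coupled to cAMP, was also lower with both cytokines. On its brightest probe it lay at 2.58, 3.13 and 2.41 in control, at 1.21, 1.98 and 1.30 with TNFα, and at 0.63, 1.31 and 0.96 with TGFß1. No treated array of these 2 groups reached a control array. The difference was -1.21 ± 0.28 with TNFα (SE, 2.31-fold, q = 0.0142) and -1.74 ± 0.28 with TGFß1 (SE, 3.34-fold, q = 0.00096). The second probe, annotated to another transcript of the gene, gave -1.42 and -1.87, both called, and -0.94 and -1.14 after normexp background correction with quantile normalization. Within the slides the brightest probe gave -1.19 and -1.54 with TNFα and -1.18 and -2.34 with TGFß1. Its TNFα call was lost on leaving out control 6 (-0.997, q = 0.0557), TNFα 4 (-1.07, q = 0.0700) or TNFα 14 (-1.11, q = 0.0522), while the second probe kept its call there. TNFα and TGFß1 differed by 0.53 (q = 0.263), which was not called. IL-6/sIL-6Rα arrays, at 1.90, 2.36 and 2.07, were all just below the lowest control array, as the arrays of 5.82% of genes were apart in that comparison. The difference of -0.60 was not called (q = 1, 95% interval -1.21 to 0.02) but was with run and slide as blocks (q = 0.0291). In this comparison the second probe was called in none of 10 alternative settings (lowest q = 0.051). IL-1β arrays, at 2.12, 2.96 and 2.30, overlapped control.

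*Ptger2*, the EP2 receptor, was not well above background on any array, between -7.29 and -6.60. *Hpgd*, the dehydrogenase that starts prostaglandin inactivation, was above background on 1 array, control 11 at -3.51, while the other 14 arrays lay between -7.25 and -6.24. Neither was tested.

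**Figure D4:**
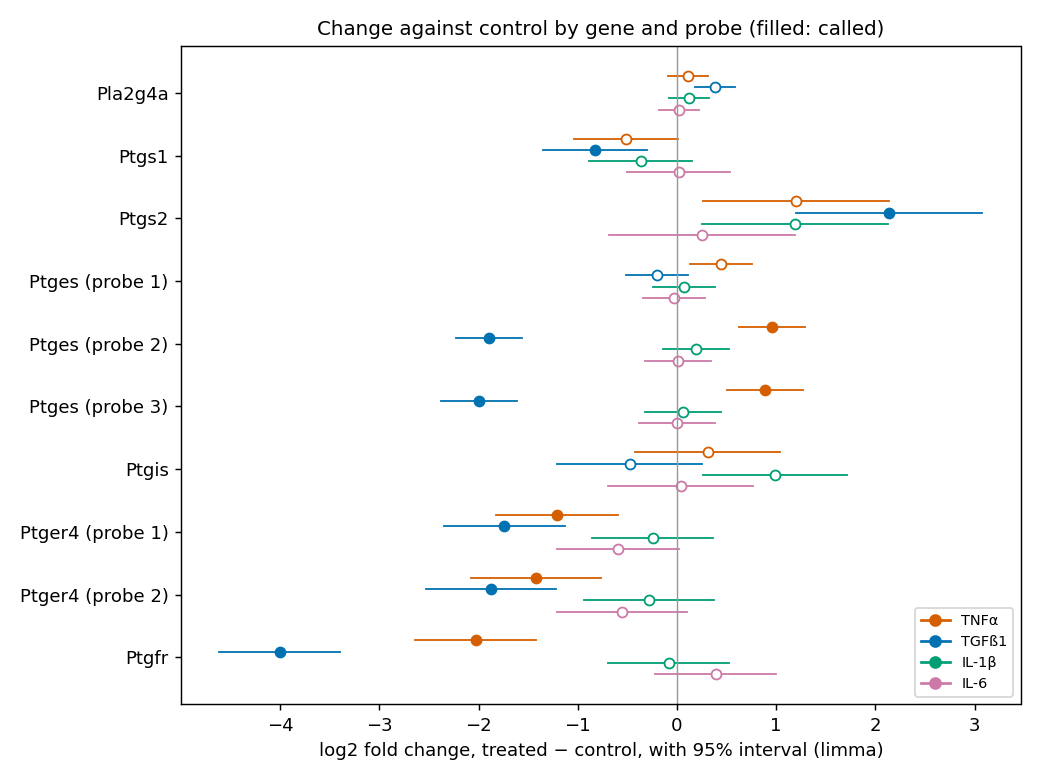
Log2 fold-change against control with its 95% interval (limma) for each tested probe and each of the 4 treatments, filled where called. *Ptgfr* at -4.00 with TGFß1 is farthest from 0, and the IL-6/sIL-6Rα points are all open. The *Ptgs2* intervals lie wholly right of 0 with TNFα, TGFß1 and IL-1β, where only the TGFß1 point is filled.

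The treated groups were also compared directly. IL-1β and TNFα, both known as proinflammatory cytokines, differed by a call in 1 of the 7 genes, *Ptgfr*, which was 1.95 higher with IL-1β (q = 0.00157), where 6.31% of genes were called (4.14% higher with IL-1β and 2.17% lower). *Ptger4* was 0.96 higher with IL-1β on its brightest probe, without a call (q = 0.0712), and 1.14 higher with a call on its second probe (q = 0.0474), a call that was lost on leaving out 11 of the 15 arrays in turn (q up to 0.215), after median scaling (q = 0.0692) and with no filter on dim probes (q = 0.108). With the run as a block the brightest probe was called too (q = 0.000481). The *Ptges* probes A_51_P312327 and A_55_P1974189 were higher with TNFα, at -0.77 and -0.82 for IL-1β minus TNFα, both called. Both calls were lost after median scaling (q = 0.0755 and 0.101) and without TNFα 14 (q = 0.0521 and 0.0695), and that of A_55_P1974189 also without IL-1β 5 (q = 0.0568) or IL-1β 15 (q = 0.0646). IL-1β against TGFß1 gave 3 calls (19.4% of genes, 11.3% higher and 8.09% lower), with *Ptgfr* 3.92, *Ptger4* 1.49 and *Ptgis* 1.47 higher with IL-1β. TNFα against TGFß1 gave 2 (14.1% of genes, 7.27% higher and 6.82% lower), with *Ptgfr* and *Ptges* higher with TNFα. That *Ptges* call was lost after median scaling and without TGFß1 7. TGFß1 against IL-6/sIL-6Rα gave 4 (19.1% of genes, 7.99% higher and 11.1% lower), with TGFß1 minus IL-6/sIL-6Rα at 1.89 for *Ptgs2*, -4.39 for *Ptgfr*, -1.14 for *Ptger4* and -0.84 for *Ptgs1*. That *Ptgs1* call was lost after median scaling (q = 0.0631) and with no filter on dim probes (q = 0.0598). It was also lost without TGFß1 2, TGFß1 12, IL-6/sIL-6Rα 3 or IL-6/sIL-6Rα 8 (q up to 0.119). The *Ptger4* call was lost without TGFß1 2 (q = 0.0592) or IL-6/sIL-6Rα 8 (q = 0.062). TNFα against IL-6/sIL-6Rα gave 1 (10.7% of genes, 3.95% higher and 6.72% lower), *Ptgfr* at -2.42. With the run as a block *Ptger4* (-0.61) was called as well. IL-1β against IL-6/sIL-6Rα gave none in limma's test (0.614% of genes, 0.399% higher and 0.214% lower), and only *Ptgis* passed 0.05 before adjustment.

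Over the 15 arrays, the named genes with the profile most like that of *Ptgfr* were *Vegfd* (Pearson's r = 0.990), *Eno2* (0.986) and *Abcc3* (0.985). For *Ptger4* they were *Pid1* (0.985), *Slc22a18* (0.972) and *Cdo1* (0.971). For *Ptgs2* they were *Nme4* (0.950), *Gm10413* (0.949) and *Hmgb3* (0.945), and for *Ptgs1* *Etv1* (0.933), *Pcdh9* (0.929) and *Fuom* (0.926). Among the set itself, *Ptgs2* correlated with *Pla2g4a* at r = 0.913, with *Ptgs1* at -0.835 and with *Ptger4* at -0.810. These points share arrays, groups and scaling, and so describe the profiles only.

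A wider list of 50 genes of the same lipid pathways held 32 that were tested. With TNFα 4 were called higher and 1 lower, with TGFß1 4 higher and 8 lower, which is 15.6% and 37.5% of the 32 beside 12.6% and 21.1% of all genes, and with IL-1β and IL-6/sIL-6Rα none was called in limma's test. The median log2 fold-change of the 32 was 0.09 with TNFα and -0.14 with TGFß1. The calls with TNFα were in other receptors (2 of 5 tested), transport and inactivation (2 of 5) and other synthases (1 of 8). None of 10 phospholipase and arachidonate release genes or of 4 lipoxygenase and leukotriene genes was called. With TGFß1 all 5 tested genes listed under other receptors were called, 2 higher and 3 lower, beside 8.89% and 12.2% of all genes. These include *Ptgfrn*, which is a regulator of a receptor. The calls of *Tbxa2r*, *Ptger1* and *Ptgdr2*, which are dim, were lost under some alternatives given below.

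*Ptgir*, the prostacyclin receptor, and *Slco2a1*, the transporter that takes prostaglandins up for inactivation, went up with TNFα and down with TGFß1. *Ptgir* lay at -2.01, -0.57 and -2.13 in control, at 0.03, 0.98 and 0.07 with TNFα and at -4.28, -4.77 and -5.04 with TGFß1, where 1 of 3 arrays was above background. It rose by 1.93 (3.82-fold, q = 0.0210) and fell by 3.13 on the log2 scale (8.74-fold, q = 0.000712), and its TNFα call was lost without control 1 (1.71, q = 0.0737), control 11 (1.65, q = 0.0854) or TNFα 9 (1.62, q = 0.0840). After normexp background correction with quantile normalization the TGFß1 difference was -1.37, still called. *Slco2a1* lay at 1.71, 1.01 and 2.08 in control, at 2.72, 2.87 and 3.44 with TNFα and at -1.62, -1.66 and -1.07 with TGFß1. It rose by 1.41 (2.66-fold, q = 0.00397) and fell by 3.05 on the log2 scale (8.29-fold, q = 1.18e-05), so that TNFα and TGFß1 were 4.46 apart (q = 3.85e-07). In both genes the IL-1β and IL-6/sIL-6Rα arrays overlapped control. Within the slides, *Ptgir* gave 2.14 and 1.08 with TNFα and -2.70 and -4.09 with TGFß1, and *Slco2a1* gave 1.55 and 1.79, and -3.56 and -2.35.

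*Abcc4*, an exporter of prostaglandins, was higher with both cytokines, by 0.87 with TNFα (q = 0.00177) and 0.72 with TGFß1 (q = 0.00346), the latter without a call after normexp background correction with quantile normalization (0.549). The thromboxane receptor *Tbxa2r* was lower, by -2.61 with TNFα (q = 0.00677), where 1 of 3 TNFα arrays was above background, and by -1.59 with TGFß1 (q = 0.0462). After normexp background correction with quantile normalization these were -0.82 and -0.63, both still called. The TGFß1 call was lost with the slide as a block (q = 0.0519), after median scaling (q = 0.0573) or quantile normalization (q = 0.0512), with no filter (q = 0.0962), in the fit of 9 arrays (q = 0.0695) and on leaving out 10 of the 15 arrays in turn. *Akr1b8*, a member of the aldo-keto reductase family, was 0.64 higher with TNFα (q = 0.0131). That call was lost after median scaling (0.538, q = 0.216), quantile normalization (0.544) or normexp with quantile normalization (0.502), and without control 6 (0.536). With TGFß1, *Ltc4s*, leukotriene C4 synthase, fell from 1.65, 2.68 and 2.09 to -0.53, 0.32 and -0.14 (-2.25, q = 0.00107), and *Gstm2*, a glutathione transferase, fell by 1.28 on the log2 scale (q = 0.0115; 0.0501 without TGFß1 2). *Ptgfrn*, a negative regulator of the prostaglandin F receptor, rose by 1.19 (q = 9.2e-05) and did not differ by a call with TNFα (-0.05). The dim prostaglandin D2 receptor *Ptgdr2* was 1.39 higher (q = 0.0134), being above background on all TGFß1 arrays and 1 control array, and 0.376 higher, without a call, after normexp background correction with quantile normalization. The call was also lost without control 6 (q = 0.0563). It was 1.13 higher with TNFα without a call (q = 0.0546), and with the slide as a block with one (1.29, q = 0.0129). The EP1 receptor *Ptger1* was above background on all control arrays and not well above background on any TGFß1 array, which gives at least 1.96-fold lower on the scale used here (q = 0.0414). After normexp background correction with quantile normalization the difference was only -0.323, and the call was lost there, with no filter (q = 0.0875), in the fit of 9 arrays (q = 0.0613), with the run as a block (q = 0.0542) and on leaving out 6 of the 15 arrays in turn.

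**Figure D5:**
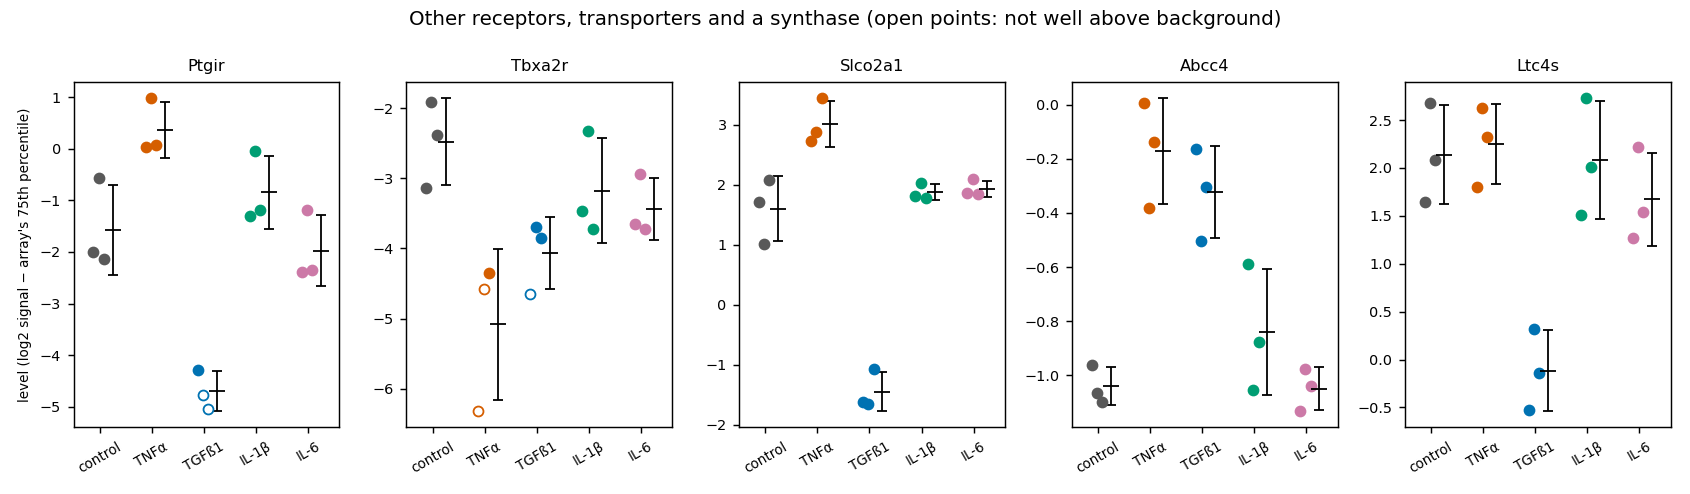
Level (log2 processed signal minus the array's 75th percentile) on each array by group for the receptors *Ptgir* and *Tbxa2r*, the transporters *Slco2a1* and *Abcc4* and the synthase *Ltc4s*, open where not well above background, with mean and SD (n = 3). *Ptgir* and *Slco2a1* sit above control with TNFα and below it with TGFß1, *Abcc4* sits above with both, and *Ltc4s* is apart on the TGFß1 arrays alone.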

How the data were processed

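RNA of MEF cultures was labelled with Cyanine 3 and hybridized by the authors to 15 one-color Agilent arrays. The deposited scanner files, made with Agilent Feature Extraction 10.7.3.1 (submitters' processing notes), give each spot's processed signal intensity, after background subtraction by that software and with no normalization between arrays. The deposited table of all arrays has identical intensity values (largest difference 0).

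Spots marked as non-uniform or outliers were left out, log2 intensity was averaged over the spots of each of 56605 probes, and the array's 75th percentile over probes was subtracted. Groups came from the labels. Probes were named through RefSeq identifiers (assembly GRCm38.p6); a gene is represented by its brightest probe that passed, and its other probes are given where they differ. Probes well above background on all arrays of at least 1 group (29334) entered 1 limma 3.58.1 fit (R 4.3.3) of all 15 arrays. Its two-sided moderated tests were adjusted after Benjamini-Hochberg. The fit was first run on simulated arrays with independent noise. These held no slide or run differences, so that trial cannot show the error rate on the real arrays. The threshold (q below 0.05, fold-change at least 1.5) is the study's. The number of arrays limits the precision. Motifs and figures used Python 3.11.15 and matplotlib 3.10.9.

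The genes, the wider list and the tests were chosen with earlier results of these data known. The genes named were all 10 of the set and, from the wider list, the 8 largest called changes per comparison against control. Alternatives were other background correction and normalization, other filters, other thresholds, the mean over probes, the fit of 9 arrays, the slide, the runs, and leaving out each array. Runs were used as a block because, with slide differences removed, deviations from the group means correlated over 0.1 in all 30 pairs of arrays of the same run (0.114 to 0.671) and in 2 of 60 pairs of different groups and runs; with slides kept the counts were 12 of 30 and 28 of 60.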

Additional observations from a re-analysis of the deposited data

How the results depend on the processing

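In the main fit *Ptges* was counted by its brightest probe, which gave no call against control. With the mean over its probes *Ptges* was called, higher with TNFα (0.76, q = 0.00109) and lower with TGFß1 (-1.36, q = 1.2e-05). Counts of genes of the set called against control in the main fit were 2 (TNFα), 4 (TGFß1), 0 (IL-1β) and 0 (IL-6/sIL-6Rα). On leaving out each array in turn they were 1 to 2, 3 to 4, 0 and 0; for TNFα against TGFß1 2, for IL-1β against TNFα 1 to 2, for IL-1β against TGFß1 3, for IL-1β against IL-6/sIL-6Rα 0, for TNFα against IL-6/sIL-6Rα 1 and for TGFß1 against IL-6/sIL-6Rα 2 to 4. The count of 1 for TNFα came without control 6, TNFα 4 or TNFα 14, the count of 2 for IL-1β against TNFα without TNFα 9, and the count of 2 for TGFß1 against IL-6/sIL-6Rα without TGFß1 2 or IL-6/sIL-6Rα 8. Without TGFß1 7 the 2 genes called for TNFα against TGFß1 included *Ptgis* in place of *Ptges*. TNFα against TGFß1 gave 1 after scaling by the median of each array and 1 at a fold-change of at least 2. IL-1β against TNFα gave 2 with the run as a block, 2 with run and slide, and 3 with the mean over probes, and TNFα against IL-6/sIL-6Rα gave 3, 3 and 2. IL-1β and IL-6/sIL-6Rα against control each gave 1 with run and slide as blocks. Of the wider list, 5 genes were called with TNFα; this was 3 with probes above background on all arrays, 8 with the slide as a block, 10 with run and slide, and 3 at a fold-change of at least 2, and on leaving out arrays 4 to 6 with TNFα, 8 to 12 with TGFß1 and 0 with the others. The alternatives for the wider list were chosen after seeing the data. No fold-change that was called changed sign under any of these alternatives. Against control, the run as a block changed the call of *Ptgs2* with TNFα and of no other gene of the set. The cause of these changes was not tested. *Ptgs1* with TGFß1 lost its call after median scaling (q = 0.0562) and with no filter (q = 0.0591). Over all probes, calls rose from 2948 to 4522 (TNFα), from 68 to 323 (IL-1β) and from 17 to 231 (IL-6/sIL-6Rα) with run and slide as blocks, and fell from 5250 to 3446 with TGFß1 after normexp and quantile normalization. Signal near background limits *Ptgis*, *Ptgir*, *Tbxa2r*, *Ptger1* and *Ptgdr2*, and *Ptgds*, *Ptger2* and *Hpgd* could not be tested.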
